A study of Mus musculus with 8 samples.

Results

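The genes described here encode 10 proteins of the contractile actin cytoskeleton: Tagln, Tagln2 and Cnn2 of the calponin family, the tropomyosins Tpm1, Tpm2 and Tpm4, the myosin light chain Myl9, and the linkers Vcl, Flna and Actn1. They are 10 of the 14709 genes that the 2 deposited expression tables list between them, and were taken by gene name. Tagln was chosen by its FPKM values in these data. It was lower in cells positive for a KLF3-GFP reporter and higher in cells overexpressing KLF3. The remaining genes are typical targets of the serum response factor SRF, and were also chosen with earlier results of these data known. The differences below are therefore a description of chosen genes and carry no test.

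The study looked for differences among mouse embryonic stem cells (mESCs) that do not arise from transcription of the gene concerned, and followed the transcription factor KLF3. All cells came from mESC lines with a C57BL/6(F) x 129/sv(M) background, grown on gelatin in serum with leukaemia inhibitory factor. In the sorted-cell experiment, a reporter line carried the N-terminal portion of KLF3, without its DNA-binding domain, fused to Emerald GFP and driven by the CAGGS promoter. A DsRed cassette in the same construct marked cells that carried it. From this line 500 cells per sample, either KLF3-GFP-positive or lacking the GFP signal (negative), were sorted and sequenced by Smart-seq2. In the overexpression experiment, clones of the R26 line, which carries a doxycycline-responsive activator at Rosa26, expressed either a codon-optimized Klf3 (KLF3-OE) or GFP (GFP-OE) for 72 hours, and poly(A) libraries were made. The clones were selected on feeder cells, and both OE groups were given doxycycline. The KLF3-OE and GFP-OE cells are different clones, so clone and transgene cannot be told apart. Each of the 4 groups held 2 samples, 8 in all.

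Smooth-muscle-type contractile genes are also used by non-muscle cells. Tropomyosins lie along actin filaments and set which proteins can bind them, calponins and transgelins bind and steady the filaments, and phosphorylated myosin light chains switch non-muscle myosin II on. Filamin and α-actinin cross-link filaments, and vinculin ties them to integrin and cadherin adhesions. Many of these genes are switched on by SRF when its actin-regulated cofactors of the MRTF family enter the nucleus, through a sequence called the CArG box.

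The authors' values are FPKM (fragments mapped to a gene, scaled to transcript length and library size), with 1 value per group, the authors' mean of the 2 replicates. The error between replicates is therefore not known for any value here. A gene was compared where the mean of its 2 groups was at least 1 FPKM, which held for 9212 genes of the sorted-cell table and 11179 of the overexpression table. Differences are of log2(FPKM + 1), and a difference past 1 or -1 is called past the 2-fold limit. Added to the FPKM, the 1 makes differences of low genes smaller than their plain ratio. The median over all compared genes was 0.03 in the sorted cells and -0.18 in the overexpression experiment. All 10 genes passed the 1 FPKM minimum wherever they had a value. Vcl is not in the sorted-cell table and has a value in the overexpression experiment only. Because the libraries were made by different protocols, levels were compared within an experiment and not between them. Klf3 was at 107.04 FPKM in negative and 122.29 in positive cells, and at 58.66 in GFP-OE and 47.76 in KLF3-OE cells. In both sorted groups, reads of the N-terminal Klf3 sequence of the reporter may align to Klf3 as well. In the overexpression experiment, reads of a codon-optimized transgene need not align to Klf3. The Klf3 values therefore do not check the labels and need not be of the endogenous gene alone. In bulk samples such as these, fewer cells of a type and less RNA per cell cannot be told apart.

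The promoters of 9 of the 10 genes were available from RefSeq (GRCm38.p6). No promoter of Tagln was available, so that of Tagln was not searched. The windows run from 250 bases before to 50 bases after the start used there. That start need not be the end of the gene spans given below. The Flna window, chrX:74246485-74246784, lies inside the Flna span. A CArG box was found on either strand in 1.63% of 32851 promoter windows, and in 3 of these 9: Myl9, Cnn2 and Vcl. The windows of these 3 genes are shown with the box in capitals, 5′ to 3′ on the plus strand. They are those of the 9 in which the binding sequence of SRF can be read. The Myl9 window is chr2:156775214-156775513, the Cnn2 window is chr10:79988350-79988649, and the Vcl window is chr14:20929148-20929447.
Myl9: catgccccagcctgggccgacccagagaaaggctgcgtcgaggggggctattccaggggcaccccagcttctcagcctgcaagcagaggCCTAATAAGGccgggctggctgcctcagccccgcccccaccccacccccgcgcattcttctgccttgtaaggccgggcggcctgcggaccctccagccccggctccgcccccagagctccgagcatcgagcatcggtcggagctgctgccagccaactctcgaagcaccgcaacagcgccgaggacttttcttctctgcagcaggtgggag
Cnn2: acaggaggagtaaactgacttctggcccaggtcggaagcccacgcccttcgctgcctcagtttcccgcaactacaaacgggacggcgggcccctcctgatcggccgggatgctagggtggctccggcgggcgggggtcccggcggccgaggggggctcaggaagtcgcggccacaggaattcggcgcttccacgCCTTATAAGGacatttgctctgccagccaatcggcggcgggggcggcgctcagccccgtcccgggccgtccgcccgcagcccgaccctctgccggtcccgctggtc
Vcl: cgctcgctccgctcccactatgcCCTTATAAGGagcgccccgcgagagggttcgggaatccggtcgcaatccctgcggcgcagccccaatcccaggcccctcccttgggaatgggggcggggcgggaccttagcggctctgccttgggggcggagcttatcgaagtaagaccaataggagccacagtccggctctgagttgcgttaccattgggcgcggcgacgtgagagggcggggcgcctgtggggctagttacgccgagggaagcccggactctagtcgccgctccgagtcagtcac
Cnn2 and Vcl hold the same 10 letters, at different distances from the start (bases 56 to 47 and 227 to 218 upstream), and Myl9 holds a different CArG box at bases 161 to 152 upstream. A match is a description of letters and not a bound site. The TEAD element GGAATG was in 4 of the 9 windows (Tagln2, Tpm1, Vcl and Flna) against 14.7% of all windows. The KLF element CCACACCC was in 0 of 9 against 3.56%, and the GC box GGGCGG in 9 of 9 against 35.7%, each searched on both strands. These 3 genes with a CArG box differed from each other in the overexpression experiment, where Myl9 and Cnn2 were higher and Vcl lower in KLF3-OE cells, as given below.

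**Figure D1:**
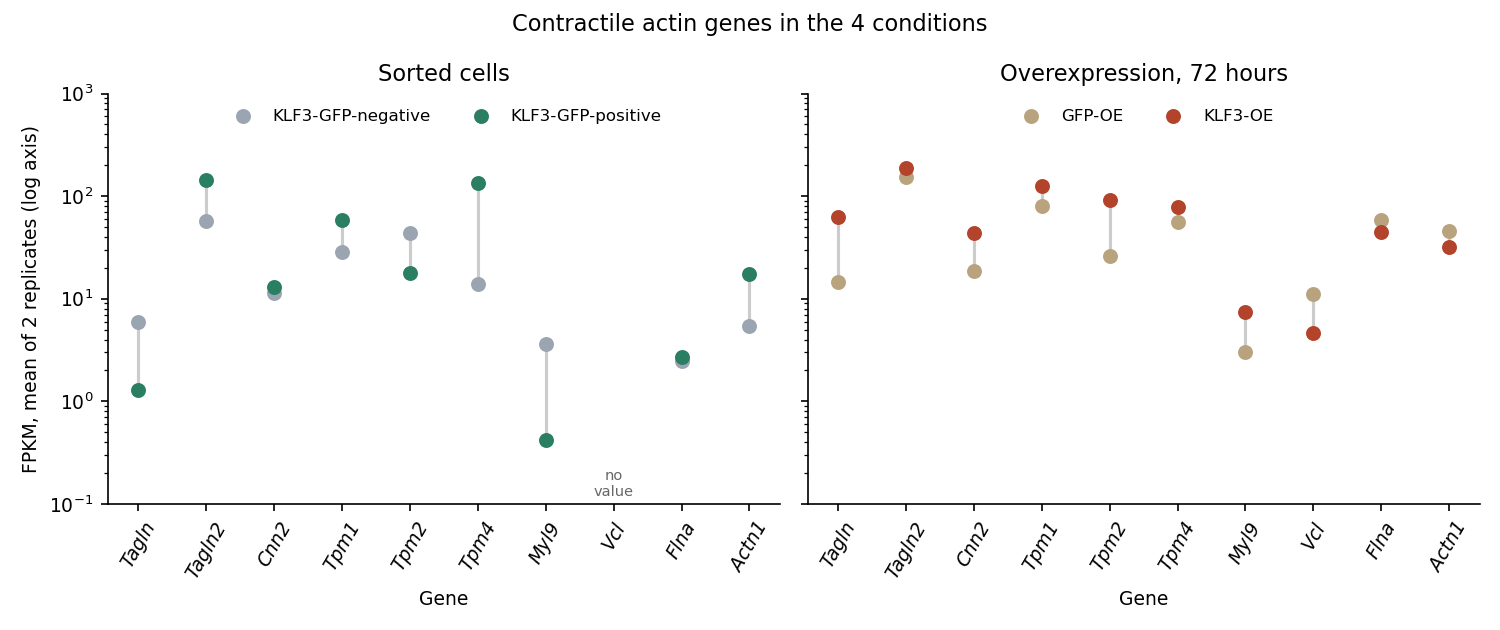
FPKM (log axis, authors' mean of 2 replicates, so no error bar can be drawn) of the 10 genes in the 4 groups, with a line joining the groups of each experiment. Tagln, Tpm2 and Myl9 lie lower in KLF3-GFP-positive cells and higher in KLF3-OE cells, and Vcl has no value in the sorted cells.

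Tagln encodes transgelin, an actin-binding protein of smooth muscle and of spread cells (ENSMUSG00000032085, mm10 chr9:45929627-45936058). Its level was 5.95 FPKM in the negative and 1.28 in the positive cells of the reporter line. It was 14.70 FPKM in GFP-OE and 62.13 FPKM in KLF3-OE cells. So Tagln was 4.65-fold lower in positive than in negative cells and 4.23-fold higher in KLF3-OE than in GFP-OE cells. On the log2 scale the differences were -1.61 and 2.01. Of all compared genes, 2.52% had a lower difference than Tagln in the sorted cells and 99.5% had a lower one in the overexpression experiment, so it lay towards opposite ends of the 2 distributions. This opposition is the reason Tagln was chosen and is not a finding.

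Its close relative Tagln2 (chr1:172500046-172507380), a transgelin found in many cell types outside muscle, behaved differently. It was at 57.47 FPKM in negative and 144.55 in positive cells, 2.52-fold higher. It was at 153.94 in GFP-OE and 186.91 in KLF3-OE cells, a log2 difference of 0.28 that is within the 2-fold limit and between -0.39 and 0.49 over the alternatives. Tagln2 made up 85.6% of the FPKM of the 3 transgelin genes in negative and 98.6% in positive cells, while Tagln went from 8.86% to 0.873%. Between GFP-OE and KLF3-OE cells the Tagln share went the other way, from 8.29% to 24.4%. The third transgelin gene, Tagln3, was at 3.70 and 0.72 FPKM in negative and positive cells (log2 difference -1.45) and at 8.78 and 5.42 in GFP-OE and KLF3-OE cells (-0.61), so it was lower in both experiments, past the 2-fold limit in the sorted cells.

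Cnn2, calponin 2, is an actin-binding protein of the same family (chr10:79988583-79996062). It was at 11.38 FPKM in negative and 13.00 in positive cells, a log2 difference of 0.18. It was at 18.63 in GFP-OE and 43.69 in KLF3-OE cells, a difference of 1.19. Its relative Cnn3 was far more abundant per length and was lower in KLF3-OE cells, at 268.79 and 109.30 FPKM (-1.29, and -0.91 with the span trend removed after median-ratio scaling). The Cnn2 share of the calponin FPKM was therefore 6.45% in GFP-OE and 28.1% in KLF3-OE cells, against 5.31% and 7.62% in negative and positive cells.

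The tropomyosins moved apart from each other in the sorted cells. Tpm4 (chr8:72134974-72153142), a tropomyosin of stress fibres and the cell cortex, was at 13.83 FPKM in negative and 135.58 in positive cells. This 9.8-fold higher level (log2 difference 3.20) exceeded that of 98.9% of compared genes. Tpm2 (chr4:43514710-43523765), a tropomyosin of muscle and of stress fibres, went from 43.93 FPKM in negative to 17.79 in positive cells, 2.47-fold lower (-1.26). Tpm1 (chr9:67022589-67049406), which makes many tropomyosin isoforms, was at 28.55 and 58.16 FPKM, a 2.04-fold higher level just past the 2-fold limit. It lay within that limit under scaling by median ratios (0.96) or quantiles (0.86), and with the GC trend removed (0.98). In negative cells the order of levels per length was thus Tpm2, Tpm1, Tpm4, and in positive cells Tpm4, Tpm1, Tpm2.

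All 3 tropomyosins were higher in KLF3-OE than in GFP-OE cells, but Tpm2 alone passed the 2-fold limit. Tpm2 was at 26.16 FPKM in GFP-OE and 91.29 in KLF3-OE cells, 3.49-fold higher (log2 difference 1.76, above that of 99.1% of compared genes). Tpm1 was at 79.86 and 126.76 (0.66) and Tpm4 at 56.00 and 78.99 (0.49). The fourth tropomyosin gene, Tpm3, was the most abundant per length in every group, at 345.45 and 570.85 FPKM in negative and positive cells and 202.15 and 227.38 in GFP-OE and KLF3-OE cells. As a share of the FPKM of all 4 tropomyosin genes, Tpm4 was 3.2% in negative and 17.3% in positive cells and Tpm2 was 10.2% and 2.27%. In GFP-OE and KLF3-OE cells the Tpm4 share was close, 15.4% and 15.1%, and the Tpm2 share was 7.18% and 17.4%. Values per gene do not tell the isoforms of a tropomyosin gene apart.

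**Figure D2:**
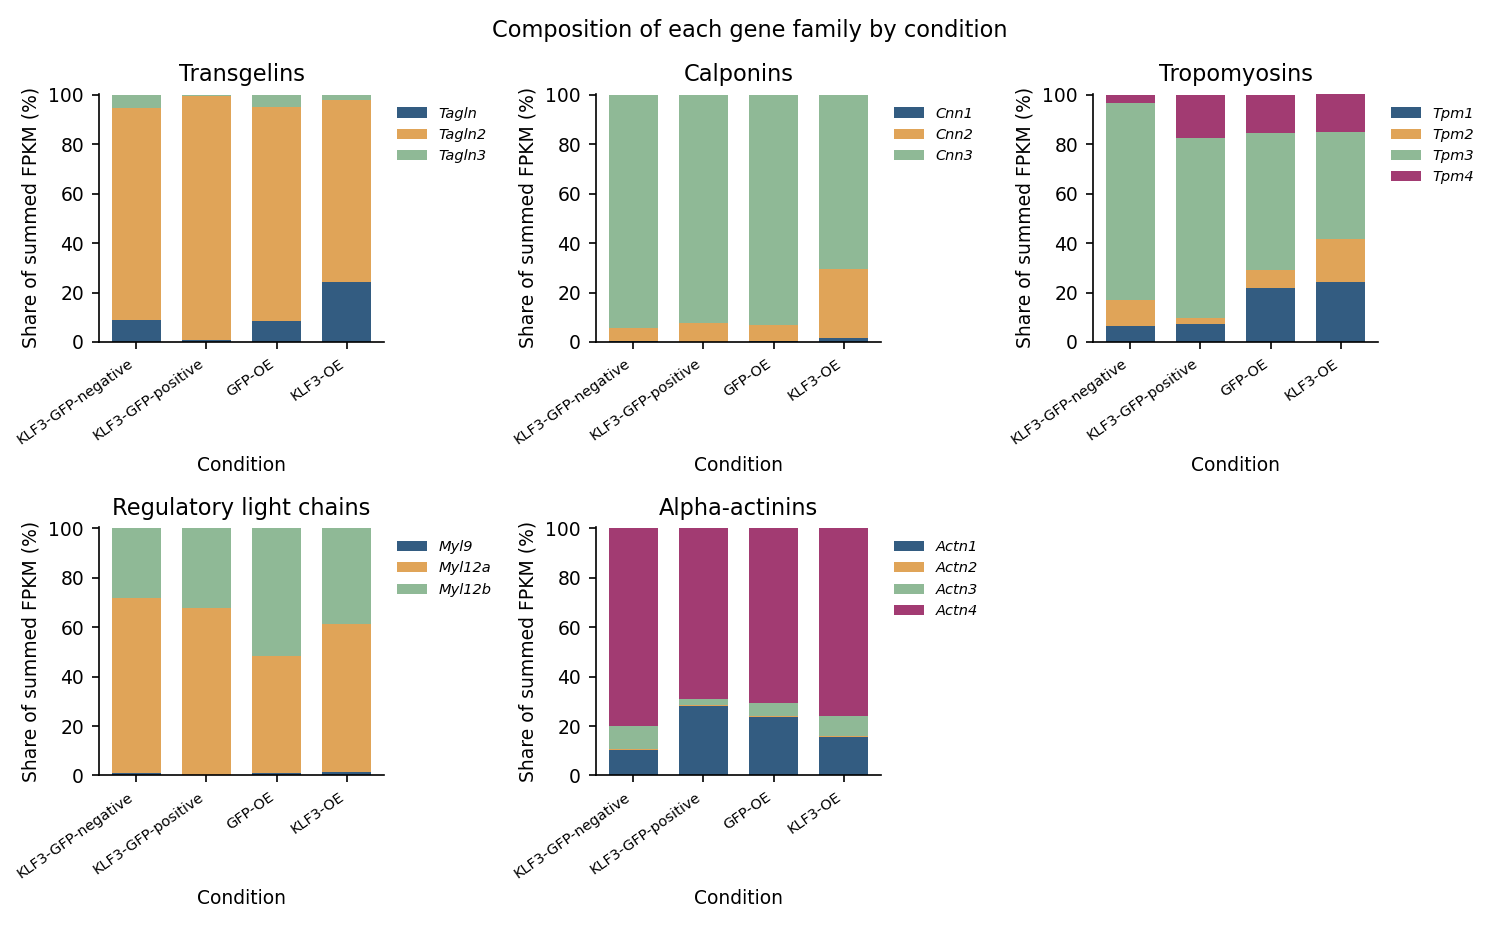
Share of the summed FPKM (percent) that each gene of the transgelin, calponin, tropomyosin, regulatory light chain and α-actinin families takes in each of the 4 groups, from the authors' means. Tpm4 takes 17.3% of the tropomyosin FPKM in KLF3-GFP-positive cells against 3.2% in negative cells, and Tagln 24.4% of the transgelin FPKM in KLF3-OE cells against 8.29% in GFP-OE cells.

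Myl9 encodes a regulatory light chain of smooth muscle and non-muscle myosin II (chr2:156775419-156781658). It was at 3.66 FPKM in negative and 0.42 in positive cells, an 8.71-fold lower level by the plain ratio and -1.71 on the log2(FPKM + 1) scale. It was at 3.03 in GFP-OE and 7.43 in KLF3-OE cells, 2.45-fold higher (1.06). The related light chain gene Myl12a was at 320.47 and 327.67 FPKM in negative and positive cells, and at 173.09 and 326.12 in GFP-OE and KLF3-OE cells (0.91). Myl9 took 0.812% of the FPKM of its family in negative and 0.0868% in positive cells, and 0.83% and 1.36% in GFP-OE and KLF3-OE cells, so the group differences in Myl9 concern a small share of these light chains. Myl12a has a near-identical copy, Myl12b, and the division of reads between them is uncertain.

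The linkers gave another picture. Actn1, α-actinin 1 (chr12:80167541-80260371), was at 5.47 FPKM in negative and 17.37 in positive cells, 3.18-fold higher (log2 difference 1.51), and at 45.70 and 32.17 in GFP-OE and KLF3-OE cells (-0.49). Flna, filamin A (chrX:74223460-74249820), was at 2.45 and 2.71 FPKM in negative and positive cells (0.10), and at 58.59 and 45.01 in GFP-OE and KLF3-OE cells (-0.37). Vcl, vinculin (chr14:20929432-21033673), was at 11.05 in GFP-OE and 4.65 in KLF3-OE cells, 2.38-fold lower (-1.09). All 3 were lower in KLF3-OE than in GFP-OE cells, and Vcl alone was past the 2-fold limit. Actn1 was at 0.02 with the span trend removed after median-ratio scaling, so its sign depends on that choice.

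Actn4, the major α-actinin per length in every group, was at 43.30 and 42.74 FPKM in negative and positive cells, and the Actn1 share of the α-actinin FPKM was 10.1% and 28.1%. Between GFP-OE and KLF3-OE cells the Actn1 share went the other way, from 23.6% to 15.6%.

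In the sorted cells 4 of the 9 genes with a value (Tagln2, Tpm1, Tpm4 and Actn1) were higher past the 2-fold limit in positive cells, where 13.8% of all compared genes were. Another 3 (Tagln, Tpm2 and Myl9) were lower, where 8.32% of all compared genes were, and Cnn2 and Flna lay between. In the overexpression experiment 4 of 10 (Tagln, Tpm2, Cnn2 and Myl9) were higher in KLF3-OE cells, against 6.6% of all compared genes, and 1 (Vcl) was lower, against 10.1%. The median difference of the genes was 0.18 in the sorted cells and 0.57 in the overexpression experiment. Because the genes were chosen with these values known, nothing is read from the counts.

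**Figure D3:**
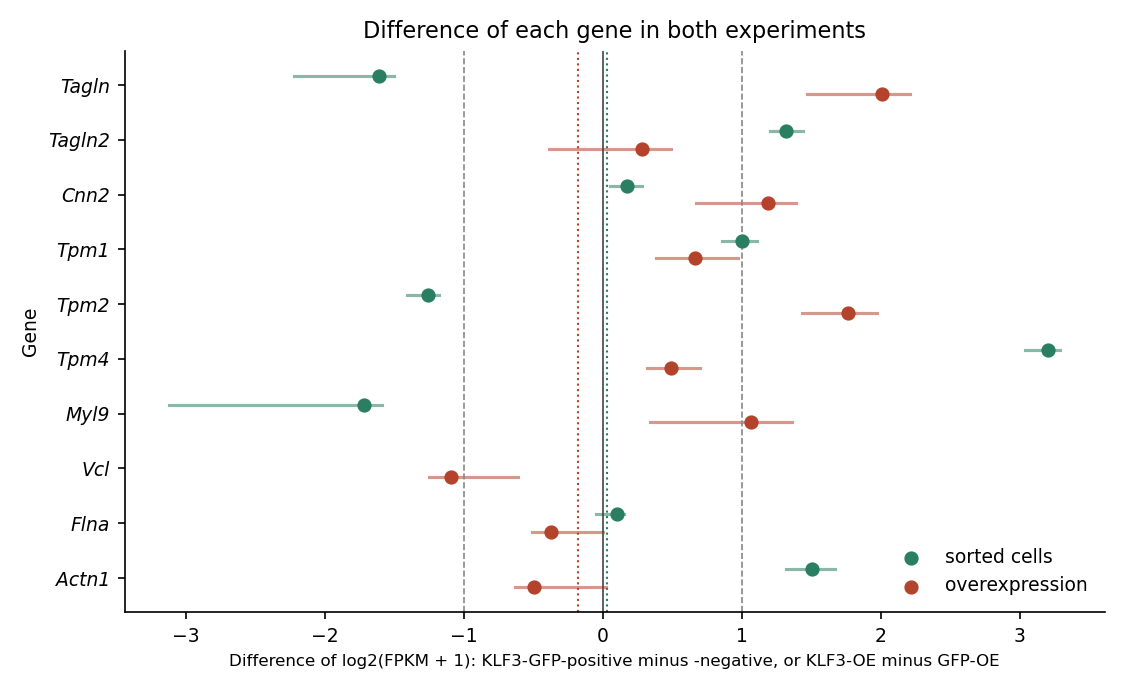
Difference of log2(FPKM + 1) for each gene in the sorted cells (KLF3-GFP-positive minus negative) and in the overexpression experiment (KLF3-OE minus GFP-OE), with the 2-fold limits as dashed lines. Dotted lines mark the median over all compared genes of each experiment. Horizontal bars run from the lowest to the highest value over the alternative settings. They are not replicate error, which cannot be drawn since each group has 1 deposited mean. Tagln, Tpm2 and Myl9 lie below 0 in the sorted cells and above 0 in the overexpression experiment, and Tpm4 has the highest difference in the sorted cells, 3.20.

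Of the 9 genes with a value in both experiments, 5 differed in sign and 4 were higher in both (Tagln2, Tpm1, Tpm4 and Cnn2). The sign of Tagln2 in the overexpression experiment, and of Flna in the sorted cells (-0.05 to 0.15), changed with the alternative. Tagln, Tpm2 and Myl9 were past the 2-fold limit in both experiments, lower in positive cells and higher in KLF3-OE cells, which held for 0.743% of the 8887 genes compared in both (66 genes). No gene of the 9 was higher past the limit in both, which held for 2.55% (227 genes). Tpm2 and Myl9 were on the list as SRF targets, chosen with earlier results known. They were singled out for this pattern after their values were seen. The same pattern was found for 0 of 8 relatives of these genes and for 0 of 23 other SRF and MRTF target genes, a list that was also chosen with earlier results known. At a share of 0.743% over all genes, 0 is the usual count in lists this short, so these counts set no gene apart. Among the 25 actin assembly genes the pattern was found for 1, Tmsb4x, which encodes the actin-monomer-binding protein thymosin β4. Tmsb4x was at 697.23 FPKM in negative and 331.86 in positive cells (-1.07), and at 143.26 in GFP-OE and 585.65 in KLF3-OE cells (2.02). Its difference in the sorted cells lay between -1.21 and -0.93 over the alternatives, so it was not past the limit in each.

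**Figure D4:**
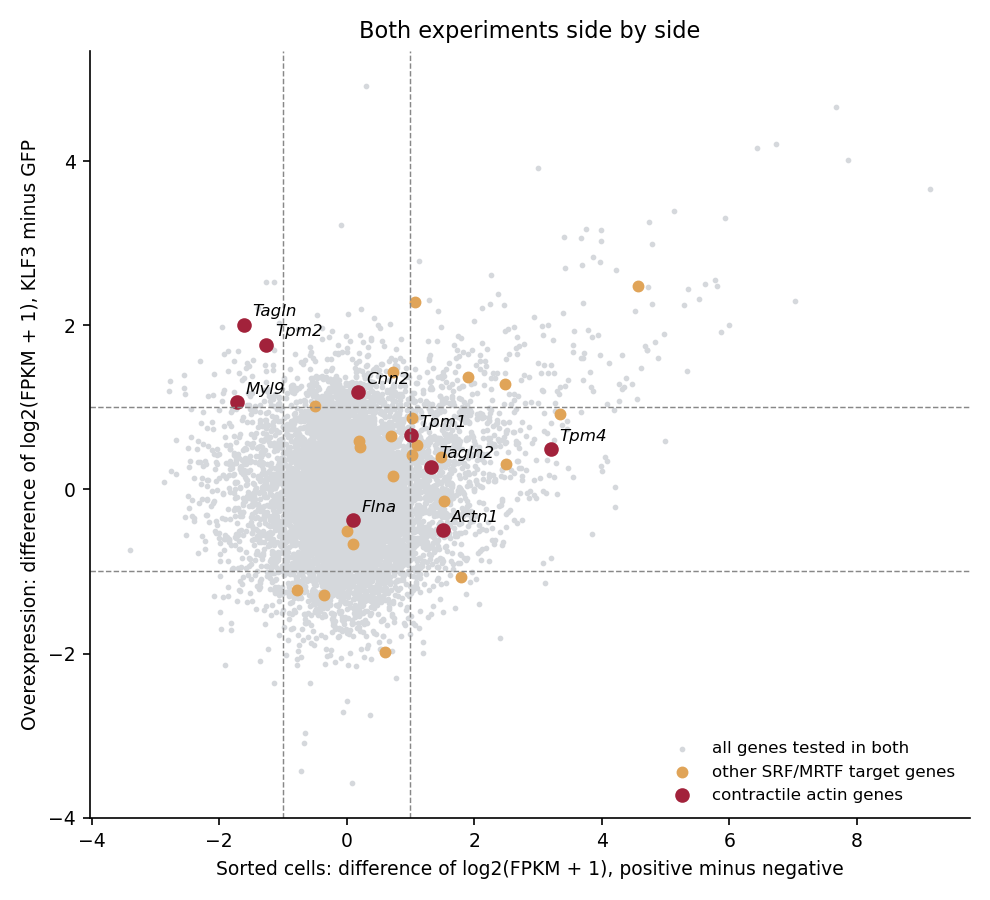
Each point is a gene compared in both experiments, with the difference of log2(FPKM + 1) in the sorted cells (KLF3-GFP-positive minus negative) on the x axis and in the overexpression experiment (KLF3-OE minus GFP-OE) on the y axis, and dashed lines at the 2-fold limits. Tagln, Tpm2 and Myl9 lie in the upper left, where 66 of 8887 genes lie. Other SRF and MRTF target genes are in orange.

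Over all genes, the differences between KLF3-OE and GFP-OE cells moved with transcript length. In 5 equal groups of genes from the shortest to the longest transcripts (GENCODE M21, median over a gene's protein-coding transcripts), the median log2 difference was 0.44, 0.01, -0.27, -0.41 and -0.55. In the sorted cells it was -0.08, -0.07, 0.00, 0.11 and 0.18. Among the genes compared in the overexpression experiment, the 5 with transcripts of 1595 to 2128 bases (Tagln, Tpm1, Cnn2, Tpm2 and Tpm4) were in the group next to the shortest, and the linkers Actn1, Flna and Vcl, with 3199, 8345 and 5267 bases, in the last 2 groups.

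The trend at the length of Tagln was 0.10, and that of Tpm2 -0.12, so their differences of 2.01 and 1.76 lay far above it. At the length of Actn1 and Flna the trend was -0.36 and -0.56, close to their differences of -0.49 and -0.37. For Myl9 the trend was 0.34 of its 1.06 and for Vcl -0.53 of its -1.09. With the length trend removed and the median over all genes kept, Tagln and Tpm2 stayed past the 2-fold limit, at 1.72 and 1.70, while Cnn2 (0.95), Myl9 (0.54) and Vcl (-0.75) did not. Myl9 was between 0.34 and 1.36 over all alternatives, Cnn2 between 0.67 and 1.39, and Vcl between -1.25 and -0.61, so for these 3 the direction was the same throughout but the side of the limit was not. Vcl was also within the limit with median-ratio scaling (-0.92). Removal of the length trend was added after the data were seen.

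**Figure D5:**
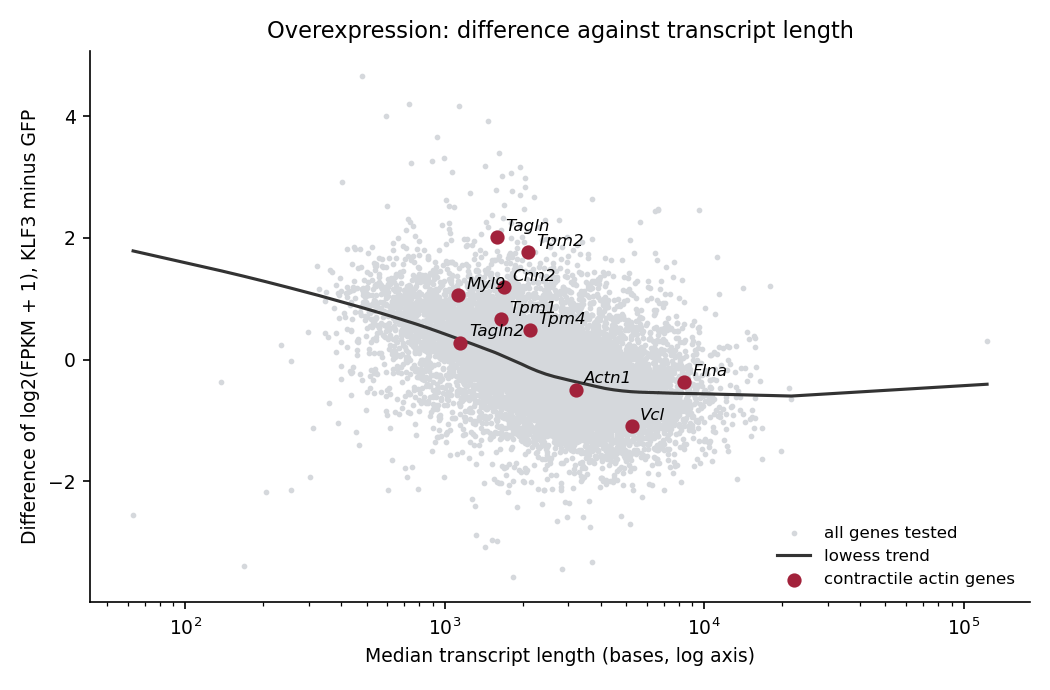
Difference of log2(FPKM + 1), KLF3-OE minus GFP-OE, against median transcript length (bases, log axis) for all compared genes, with the lowess trend as a line. Tagln (2.01) and Tpm2 (1.76) lie well above the trend, while Actn1 and Flna lie near it.

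The actin filament itself is built largely from Actb and Actg1 in these cells. Actb, β-actin, was at 4264.68 FPKM in negative and 8658.85 in positive cells (log2 difference 1.02, and 0.98 at the lowest over the alternatives) and at 677.66 and 1239.74 in GFP-OE and KLF3-OE cells (0.87). Acta2, the smooth muscle α-actin often expressed together with Tagln, had a value in the overexpression experiment only, 7.02 in GFP-OE and 14.93 in KLF3-OE cells (0.99, and between 0.87 and 1.24 over the alternatives, so on either side of the 2-fold limit). Acta1, Actc1 and Actg2 are in neither table. The actin genes have near-identical copies, so the division of reads between them is uncertain.

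Of the 11 genes of the myosin II motor and its control that were compared in the sorted cells, 2 were higher and 1 lower past the limit in positive cells, beside 13.8% and 8.32% of all compared genes. Of 12 compared in the overexpression experiment, 3 were higher and 3 lower, beside 6.6% and 10.1%. Myh9, the major non-muscle myosin heavy chain, was at 1.82 and 8.74 FPKM in negative and positive cells (1.79), and at 48.53 and 22.72 in GFP-OE and KLF3-OE cells (-1.06, between -1.32 and -0.55 over the alternatives), opposite in sign to Tagln in both experiments. Ppp1r12a, the myosin phosphatase targeting subunit, was at 10.49 in GFP-OE and 2.34 in KLF3-OE cells (-1.78), and the small GTPase Rhob at 4.43 and 13.07 (1.37, between 0.66 and 1.64). With the trend in genomic span removed, the overexpression counts of this list were 0 higher and 1 lower.

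Srf itself, the factor that binds the CArG box, was at 2.14 and 2.55 FPKM in negative and positive cells (0.18) and at 7.97 and 8.23 in GFP-OE and KLF3-OE cells (0.04). The MRTF genes Mkl1 and Mkl2 were at 3.69 and 1.18 FPKM in GFP-OE cells and at 4.04 and 1.15 in KLF3-OE cells, and their cofactor of muscle, Myocd, is in neither table. Of the SRF partners of the ETS family, Elk3 was at 7.38 and 2.56 in negative and positive cells (-1.24) and Elk1 at 7.71 and 2.22 in GFP-OE and KLF3-OE cells (-1.44). Elk3 was not lower in KLF3-OE cells (0.41). Of SRF and its cofactors, Elk3 alone was lower past the limit in the sorted cells, and Elk1 alone in the overexpression experiment. RNA levels do not measure the nuclear entry of MRTF.

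The counts of the next lists are to be read against the shares over all compared genes, 13.8% higher and 8.32% lower in positive cells and 6.6% and 10.1% in KLF3-OE cells. Of 23 other SRF and MRTF target genes compared, 12 were higher and 0 lower past the limit in positive cells, with a median difference of 1.02 against 0.03 over all genes. The 12 were 13 with a pseudocount of 0.1, 10 with median-ratio scaling (median 0.98) and 9 with quantile normalization (median 0.89). In KLF3-OE cells 6 of 26 were higher and 4 lower, with a median of 0.53 against -0.18. Over the alternatives between 5 and 9 were higher and between 1 and 4 lower, with 9 and 3 under median-ratio scaling. Cyr61, a matricellular protein also controlled by YAP, was at 1.17 and 50.51 FPKM in negative and positive cells (4.57), and at 8.36 and 51.19 in GFP-OE and KLF3-OE cells (2.48). Fhl1, a LIM protein of muscle, was at 0.56 and 14.80 in negative and positive cells (3.34). Lima1, which steadies actin filaments, was at 43.50 in GFP-OE and 10.24 in KLF3-OE cells (-1.99).

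Focal adhesion genes gave 8 higher and 1 lower of 19 compared in positive cells, with a median of 0.65, and 2 higher and 2 lower of 19 in KLF3-OE cells, with a median of -0.14. Parva, which links integrin-bound kinases to actin, was higher in both, at 1.01 and 12.86 FPKM in negative and positive cells (2.79) and 2.14 and 9.73 in GFP-OE and KLF3-OE cells (1.77). Zyx, zyxin, a sensor of tension at adhesions, was at 1.06 and 6.74 (1.91) and at 6.85 and 19.24 (1.37). Among YAP and TEAD genes 6 of 10 were higher and 0 lower in positive cells, and 3 of 13 higher and 0 lower in KLF3-OE cells. The 6 in positive cells were 5 with the span trend removed and 4 with quantile normalization. Ankrd1, a YAP target, was at 0.19 and 28.12 FPKM in negative and positive cells (4.61) and at 2.22 and 8.00 in GFP-OE and KLF3-OE cells (1.48).

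Actin assembly genes gave 3 higher and 1 lower of 25 in positive cells, near the 13.8% higher of all compared genes and below the 8.32% lower. In KLF3-OE cells 6 of 25 were higher and 1 lower, beside 6.6% and 10.1% of all compared genes, and between 3 and 7 were higher over the alternatives. Gsn, gelsolin, which cuts filaments, was at 0.37 and 7.45 FPKM in negative and positive cells (2.62) and at 2.93 and 14.45 in GFP-OE and KLF3-OE cells (1.98). Cross-linkers and cortex genes gave 3 higher and 1 lower of 14 in positive cells. In KLF3-OE cells 0 of 15 were higher and 7 lower, among them Anln (-1.62), Msn (-1.59) and Ezr (-1.30), which scaffold or tether the cortex. The lower count of this list was between 2 and 7 over the alternatives tried.

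Markers of other cells that could supply contractile RNA were measured beside these genes. Summed levels are to be read beside the sum over all listed genes. That sum was 904629 FPKM in negative and 947917 in positive cells, and 612621 in GFP-OE and 834882 in KLF3-OE cells. Of 17 fibroblast and feeder markers, 11 were in the overexpression table, and their summed level was 171 FPKM in GFP-OE and 71.7 in KLF3-OE cells, most of it Fn1 (162.80 and 62.10). Of the 5 compared there, 0 were higher and 1, Fn1, was lower past the limit, and 4 lay within it. Beside this, 6.6% of all compared genes were higher and 10.1% lower. The median of the 5 was 0.15 against -0.18 over all genes. It was 0.45 with quantile normalization and -0.72 with all trends removed. Col1a1 was at 0.23 and 0.29 FPKM and Col1a2 at 0.18 and 0.40, while Dcn, Postn and Col3a1 are in neither table. In the sorted cells 6 of the 17 were listed, summing to 8.29 in negative and 5.59 in positive cells. Of 15 muscle markers, 11 were listed in the overexpression experiment, summing to 42.9 in GFP-OE and 68.1 in KLF3-OE cells, and 5 in the sorted cells, summing to 10.3 and 14.6. Myh11, Myocd, Actc1 and Myod1 are in neither table.

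Endoderm markers were higher in KLF3-GFP-positive than in negative cells, and in KLF3-OE than in GFP-OE cells. All 13 compared in the sorted cells were higher past the limit in positive cells, with a summed level of 46 FPKM in negative and 1640 in positive cells. All 12 compared in the overexpression experiment were higher in KLF3-OE cells, summing to 208 in GFP-OE and 883 in KLF3-OE cells. Pluripotent cell markers were lower for 6 of 8 in positive cells, with summed levels of 21900 FPKM in negative and 11500 in positive cells. In KLF3-OE cells 2 of 8 were lower, with a median difference of -0.67 against -0.18 over all genes. Those counts were 1 higher and 1 lower with median-ratio scaling and 0 higher and 4 lower with quantile normalization. The summed level of the pluripotent cell markers was higher, 6400 in GFP-OE and 8560 in KLF3-OE cells, as was the sum over all listed genes. The part of these marker differences in the values of the contractile genes was not tested.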

How the data were processed

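The authors deposited FPKM values in 2 tables, 1 column per group, each their mean of 2 replicates. The submitters' processing notes name STAR 2.6.0 and Cufflinks 2.2.1 with mm10, and the study's methods give another STAR version. The lowest listed value is 0.1. Depth is not given by FPKM and is unknown, so no interval or detection limit is given. The authors' columns were read as deposited, genes were compared where the mean of both groups was at least 1 FPKM, and differences of log2(FPKM + 1) were set against a 2-fold limit. With 1 value per group there is no test, and the planned fits across replicates were not run. The genes named were the 10 genes, in each other list the 3 with the largest difference in each experiment, and any gene of the lists of relatives, actins and SRF cofactors. Defining markers were named where low or absent. The members and lists were chosen with earlier results of these data known. Transcript lengths came from GENCODE M21, which matched 99.3% and 98.9% of compared genes, and promoters from RefSeq (GRCm38.p6). Alternatives were another pseudocount, filters, scalings and removal of length, span and GC trends (lowess fraction 0.3). The scripts were tested on simulated data. The values of some list genes are not reported here.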

Additional observations from a re-analysis of the deposited data

How the results depend on the processing

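Over 11 alternatives no difference of the 10 genes past the 2-fold limit changed sign. Tagln and Tpm2 stayed past the limit in both experiments under every alternative in which they were compared. Tagln lay between -2.22 and -1.50 in the sorted cells and between 1.47 and 2.21 in the overexpression experiment. At a minimum of 5 FPKM, 6 genes were compared in the sorted cells and 1 was lower instead of 3, since Tagln and Myl9 were left out, and the median was 1.16. The sorted-cell median of 0.18 was 0.19 with a pseudocount of 0.1 and with a floor of 0.1, 0.14 with median-ratio scaling, 0.05 with quantile normalization, and 0.21, 0.28, 0.16 and 0.25 with the span, transcript length, GC and all trends removed.

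In the overexpression experiment 2 genes instead of 4 were higher with the span, length, GC or all trends removed, and 0 instead of 1 lower with median-ratio scaling, quantile normalization, and removal of the span (also after median-ratio scaling), length or all trends. The median of 0.57 was 0.58 with a pseudocount or floor of 0.1 and with the span trend removed, 0.78 with median-ratio scaling, 0.35 with quantile normalization, 0.77 with the span trend removed after median-ratio scaling, and 0.42, 0.65 and 0.43 with the length, GC and all trends removed. Over all genes there, 738 were higher and 1133 lower. Median-ratio scaling, which moved the median of all genes from -0.18 to 0.00, gave 1183 and 719, and quantile normalization 808 and 701. The cause of these shifts was not tested. The length, GC and combined trends were chosen after seeing the data. No paired analysis was possible because the files hold 1 mean per group, and for the same reason no replicate could be left out.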

Other observations

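Actb and Actg1, the 2 cytoplasmic actins, stood in very different proportions in the 2 experiments. The ratio of their FPKM was 117 in negative and 145 in positive cells of the KLF3-GFP reporter line, and 1.94 in GFP-OE and 2.27 in KLF3-OE cells. These genes have near-identical copies elsewhere in the genome, and the libraries were made by different protocols. Of the trophoblast markers, 2 of 5 compared in the sorted cells were higher and 1 lower past the 2-fold limit in positive cells, and 3 of 8 were higher in KLF3-OE cells, with summed levels of 37.8 and 394 FPKM in negative and positive cells and 98.8 and 551 in GFP-OE and KLF3-OE cells. Of all compared genes 13.8% were higher in positive cells and 6.6% in KLF3-OE cells. The 3 higher in KLF3-OE cells were 6 with a pseudocount of 0.1 or quantile normalization and 5 with median-ratio scaling.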
